A study of Homo sapiens with 6 samples.

Results

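MDA-MB-231, a human breast cancer cell line of mesenchymal character, was profiled by RNA-seq in 2 groups of 3 libraries. Cells of the shNT group carried a control hairpin and cells of the shGPR81 group a hairpin against GPR81, the lactate receptor encoded by *HCAR1*. Both had been infected with lentivirus, and resistant clones had been selected with puromycin, so the hairpin and the selected line cannot be told apart. The labels do not say which of the hairpins against GPR81 the sequenced cells carried, or whether the libraries came from separate cultures, so p-values measure the spread between these libraries, which may be technical. Described here are 10 of the 26255 genes in the table, chosen by symbol: the 5 ICAM genes (*ICAM1*, *ICAM2*, *ICAM3*, *ICAM4* and *ICAM5*) and *VCAM1*, *ALCAM*, *MCAM*, *L1CAM* and *NCAM1*. The paper had already reported *ICAM1* as decreased in shGPR81 cells from its RNA-seq.

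These genes encode cell surface proteins of the immunoglobulin superfamily, whose outer immunoglobulin-like domains bind a partner on a neighbouring cell. ICAM proteins are ligands of leukocyte integrins that share the chain encoded by *ITGB2*, and VCAM1 is a ligand of integrins with the chain encoded by *ITGA4*. ICAM1 and VCAM1 are known for their induction by inflammatory cytokines through NF-kB, whereas ALCAM, MCAM, L1CAM and NCAM1 are best known from contacts between cells of epithelia, vessels and the nervous system, and several of them bind to copies of themselves. In tumours, ICAM1, ALCAM, MCAM and L1CAM have all been studied for their part in migration and spread.

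In bulk RNA, fewer cells with a transcript and less of it per cell cannot be told apart. Of the 10 genes, *ICAM1* alone was called, and it was lower in shGPR81 cells at 38.3% of the shNT mean. *VCAM1*, which was near the limit of detection, was listed in all 3 shNT libraries and in 1 of the 3 shGPR81 libraries, and did not pass the test. The other 6 tested genes had log2 fold changes between -0.17 and 0.05, and none of them passed. *ICAM4* and *NCAM1* were at or near 0 in every library and could not be tested. To be called, a gene needed a fold change over 1.5 together with an adjusted p below 0.05 in limma on log2(FPKM + 0.1), with Benjamini-Hochberg adjustment over 14349 genes that reached 0.1 FPKM in at least 3 libraries. FPKM is a level per length of transcript and size of library, so levels can be set beside each other across genes.

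The upstream sequences of *ICAM1* and *VCAM1* are shown because these are the members known to respond to NF-kB. They also had the lowest log2 fold changes, which were seen before this choice. *VCAM1* was not called and reached 0.1 FPKM in its shNT libraries alone. A part of NF-kB in these differences was not tested. The 250 bases before each RefSeq start occur once on their chromosome in GRCh37, at chr19:10381546-10381795 for *ICAM1* and at chr1:101185048-101185297 for *VCAM1*, both on the plus strand. Capitals mark matches on either strand to GGNANTTCC (NF-kB), TTCNNNGAA (STAT) and, for the TATA box, TATAAA.
ICAM1: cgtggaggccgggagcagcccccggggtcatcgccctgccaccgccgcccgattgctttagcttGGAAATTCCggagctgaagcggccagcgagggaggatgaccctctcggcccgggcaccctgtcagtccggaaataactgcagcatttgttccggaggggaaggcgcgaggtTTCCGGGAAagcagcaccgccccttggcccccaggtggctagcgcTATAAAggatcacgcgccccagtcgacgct
VCAM1: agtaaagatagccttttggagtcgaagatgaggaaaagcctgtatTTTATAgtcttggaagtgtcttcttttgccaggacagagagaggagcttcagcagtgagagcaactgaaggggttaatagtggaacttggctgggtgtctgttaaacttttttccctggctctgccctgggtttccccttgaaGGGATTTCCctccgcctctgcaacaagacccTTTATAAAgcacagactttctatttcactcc

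In the *ICAM1* window the NF-kB match GGAAATTCC began 186 bases before the start and fitted the word on both strands, the STAT match began 75 bases before it and the TATA match 30 bases before it. The *VCAM1* window had 1 NF-kB match, GGGATTTCC, 62 bases before the start, and TATA matches that began 29, 31 and 205 bases before it, the first pair overlapping. The *ICAM1* window ends inside the GENCODE gene, whose start is annotated further upstream. Of all 35116 RefSeq windows of this length, 4.25% held the NF-kB word, 6.57% the STAT word and 10.7% the TATA word. Windows were at hand for 8 of the 10 members, and the NF-kB word was found in those of *ICAM1* and *VCAM1* and not in those of *ICAM3*, *ICAM4*, *ICAM5*, *ALCAM*, *MCAM* and *L1CAM*. The same windows were searched for TGACGTCA (CREB; 1.65% of all windows), TGANTCA (AP-1; 6.57%) and GGGCGG (SP1; 42.6%). The CREB word occurred once, in the window of *MCAM*, and the AP-1 word in none. The SP1 word occurred in the windows of *ICAM1*, *ICAM3*, *ICAM5*, *ALCAM*, *MCAM* and *L1CAM*. These matches describe letters in a window and are not measured binding.

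The libraries were first checked against their labels. *VIM*, the mesenchymal intermediate filament gene, averaged 3552 FPKM in shNT (SD 365, n = 3) against 4135 FPKM in shGPR81 (SD 268, n = 3). The other 4 of the 5 markers listed for this line had negative log2 fold changes, of -0.20 for *CD44*, -0.07 for *EGFR*, -0.19 for *KRT18* and -0.25 for *KRT8*, and none of the 5 was called. Of 5 luminal breast markers, *CDH1*, *ESR1* and *PGR* were listed at 0 in all 6 libraries, *EPCAM* was at 6.16 and 5.60 FPKM in shNT and shGPR81, and *GATA3* at 1.21 and 1.37 FPKM. The targeted gene *HCAR1* was at 0.968, 1.02 and 1.36 FPKM in shNT and at 0.978, 0.891 and 0.396 FPKM in shGPR81, a log2 fold change of -0.57 (limma, adjusted p = 0.38, SE 0.31), so its groups overlapped and the table does not show the knockdown at the test's threshold. The FPKM of *HCAR1* correspond to 37, 40 and 52 reads in shNT and to 40, 36 and 16 reads in shGPR81. Corrected for depth, the read ratio was 0.677 (95% Clopper-Pearson interval 0.513 to 0.892). That interval lies below 1 but covers counting error only. The paper reports reduced GPR81 in its shGPR81 lines by RT-qPCR and western blotting. Dropping shGPR81 replicate 3, the lowest library, left a log2 fold change of -0.22, and dropping shGPR81 replicate 1 one of -0.78, neither of them called. In what follows, shGPR81 therefore means the libraries labelled so. Of the 6 endothelial markers, *CDH5* and *SELE* were listed at 0 in every library, and the list summed to 0.818 to 1.05 FPKM in shNT and to 0.798 to 1.23 FPKM in shGPR81. Of the 6 leukocyte markers, *CD3E* was listed at 0 throughout, *PTPRC* was listed at 0 in shNT, and the list summed to 86.0 to 113 FPKM in shNT and to 118 to 139 FPKM in shGPR81, most of it *CD68*. In the same list *CD14* was at 3.38 FPKM in shNT and 1.49 FPKM in shGPR81 (limma, log2 fold change -1.10, adjusted p = 0.0562), *ITGB2* had a log2 fold change of -0.25, and the median over its 3 tested genes was -0.25. The 5 neural markers summed to 1.01 to 1.404 FPKM in shNT and to 1.46 to 1.76 FPKM in shGPR81, with a narrow gap between the groups. The largest rise among them was in *SYT1*, at 0.703 FPKM in shNT and 1.10 FPKM in shGPR81. Of the 3 tested neural markers, *SYT1* and *MAP2* were higher (log2 fold changes 0.58 and 0.39) and *SYP* was lower (-0.54). None of them was called. The leukocyte and neural sums moved with the group, and their part in the results below was not tested. The FPKM steps place the depth between 12235819 and 13100898 reads per library (median over 3281 genes).

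*ICAM1* occupies 10381769 to 10397291 of chromosome 19 (GRCh37, plus strand), and its product is the cytokine-induced ligand of the integrins that hold *ITGAL* or *ITGAM* with *ITGB2*. Its level was 5.01, 5.33 and 5.62 FPKM in the shNT libraries. In the shGPR81 libraries it was 1.80, 2.10 and 2.21 FPKM. All 3 shGPR81 libraries were below every shNT library, and the gap between the groups was wider than the range within either one. The means were 5.32 ± 0.308 FPKM (SD, n = 3) for shNT and 2.04 ± 0.209 FPKM (SD, n = 3) for shGPR81, a log2 fold change of -1.35 (SE 0.11, 95% interval -1.60 to -1.09, adjusted p = 0.0011 from limma). The exact two-sided permutation test gave p = 0.1, the smallest that 3 against 3 libraries allow. Of all tested genes, 1.59% were called lower and 0.955% higher, 5.13% had an adjusted p under 0.05 at any fold, and 0.871% had a log2 fold change as low as that of *ICAM1*.

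The FPKM of *ICAM1* in the 6 libraries were whole multiples of 1 step, within a tolerance of 0.0001, and so give read numbers. These were 210, 229 and 236 reads in shNT and 81, 93 and 98 reads in shGPR81. Corrected for depth, the ratio of shGPR81 to shNT reads was 0.383 (95% Clopper-Pearson interval 0.331 to 0.441), an interval that covers counting error only. *ICAM1* was called with each library left out in turn (adjusted p between 0.0018 and 0.0133) and under every other setting that was tried.

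**Figure D1:**
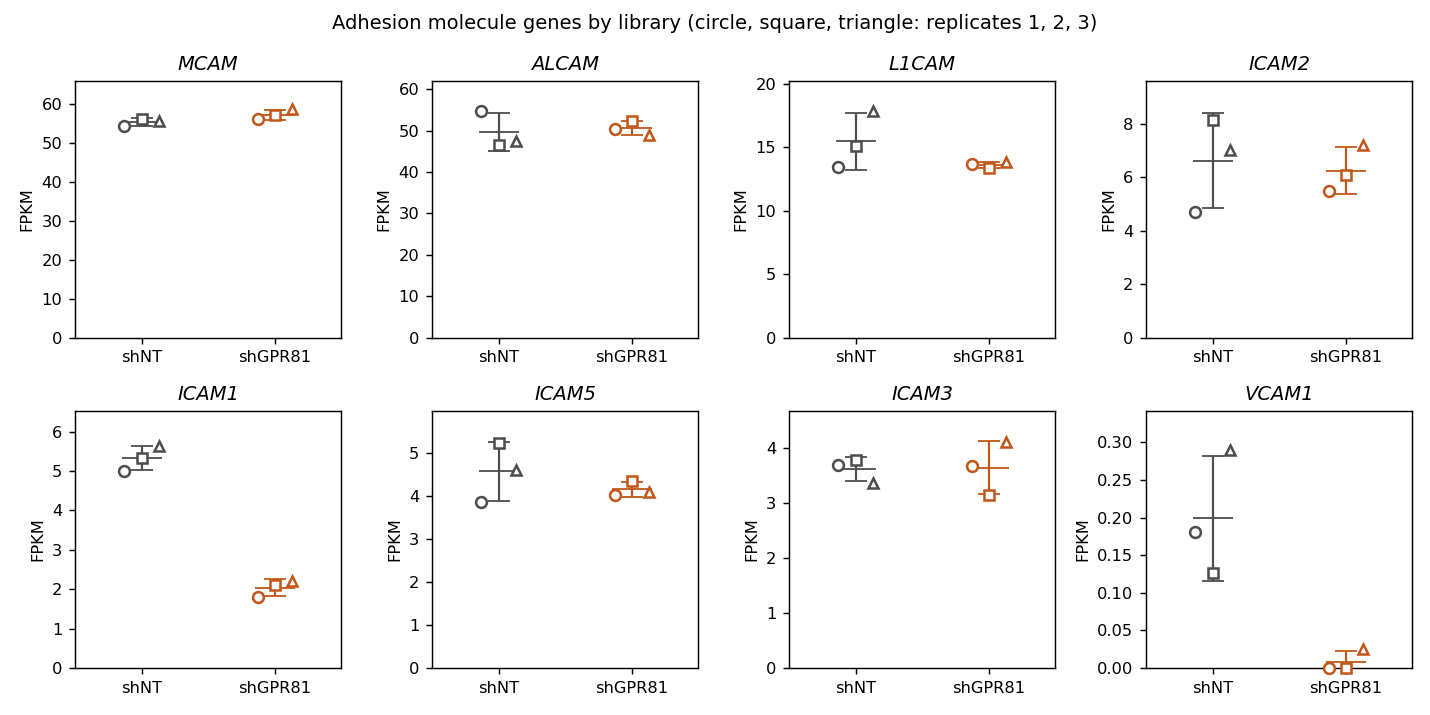
FPKM of the 8 tested members in each library, on linear axes from 0, with a panel per gene ordered by shNT mean. Open symbols are the 3 libraries of a group, and the bar with whiskers is the mean ± SD (whiskers are cut at 0). The shGPR81 libraries lie between 1.80 and 2.21 FPKM for *ICAM1*, below all shNT libraries, while the groups overlap in the 6 genes other than *ICAM1* and *VCAM1*.

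*VCAM1*, on chromosome 1 from 101185298 to 101204601 (plus strand), encodes the other cytokine-induced member, best known from endothelium. It was listed at 0.181, 0.126 and 0.290 FPKM in the shNT libraries and at 0, 0 and 0.0252 FPKM in the shGPR81 libraries. The groups did not overlap, but *VCAM1* passed the filter on low values through its shNT libraries alone, and a gene that passes in this way must differ between the groups. Its log2 fold change was -1.43 (limma, adjusted p = 0.0613, SE 0.34), which missed the threshold. With no filter on low values its adjusted p was 0.0318, and over all settings it lay between 0.0318 and 0.179. The size depended on the pseudocount, from -0.25 with a pseudocount of 1 to -3.70 with 0.01, since 2 libraries were at 0, and no whole read numbers could be recovered for this gene.

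**Figure D2:**
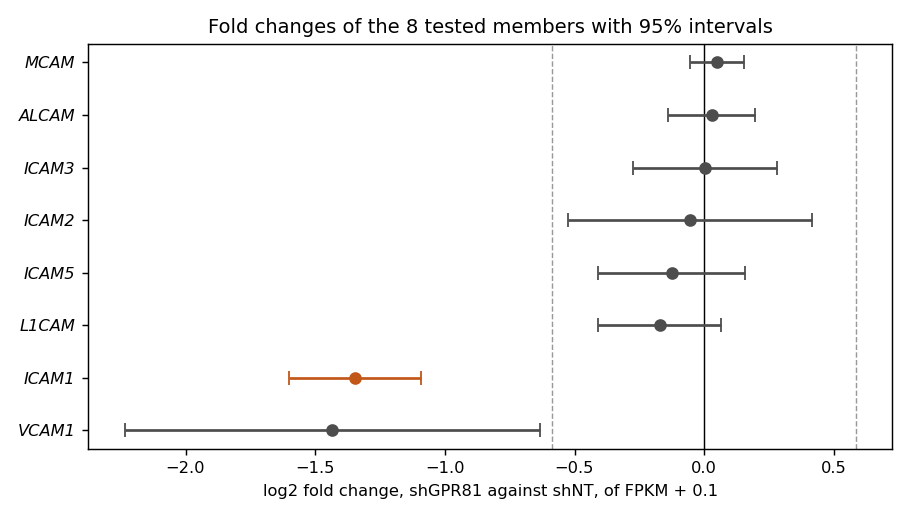
Log2 fold changes of FPKM + 0.1 in shGPR81 against shNT for the 8 tested members, as points with 95% intervals from limma. Dashed lines mark a fold change of 1.5 in either direction and orange marks the called gene. *ICAM1* (-1.35) and *VCAM1* (-1.43) lie apart from the other 6, whose intervals all include 0. *VCAM1* was not called and passed the filter on low values through shNT alone, so its groups had to differ.

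Of the ICAM genes next to *ICAM1*, none that could be tested was called. *ICAM4*, *ICAM5* and *ICAM3* share its stretch of chromosome 19, and the 4 genes span 68.6 kb. *ICAM4* (10397631 to 10399198, plus strand) starts 339 bases after the end of *ICAM1* and encodes the red cell protein of the Landsteiner-Wiener blood group. It was listed at 0 in all 6 libraries.

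*ICAM5* (10400628 to 10407454, plus strand) encodes telencephalin, a protein of forebrain neurons. It was at 3.86, 5.24 and 4.61 FPKM in shNT and at 4.02, 4.34 and 4.09 FPKM in shGPR81. The shGPR81 values lay within the shNT range. Its log2 fold change was -0.13 (95% interval -0.41 to 0.16, adjusted p = 0.654 from limma), from 149, 207 and 178 reads in shNT and 166, 177 and 167 reads in shGPR81. The read ratio was 0.907 (95% Clopper-Pearson interval 0.802 to 1.03).

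*ICAM3* (10444452 to 10450337, minus strand) encodes the ICAM of resting leukocytes, a ligand of the lectin CD209. Its level was 3.69, 3.78 and 3.36 FPKM in shNT. In shGPR81 it was 3.66, 3.14 and 4.10 FPKM, a range that spans the shNT values. The log2 fold change was 0.00 (95% interval -0.28 to 0.28, adjusted p = 0.995 from limma), and the read ratio 1.01 (95% Clopper-Pearson interval 0.839 to 1.21) from 237 reads in shNT and 251 reads in shGPR81.

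*ICAM2*, the ICAM of resting endothelium and platelets, lies elsewhere, on chromosome 17 from 62079954 to 62097994 (minus strand). It varied most of the ICAM genes, with 4.71, 8.17 and 7.02 FPKM in shNT and 5.49, 6.09 and 7.20 FPKM in shGPR81. The shGPR81 libraries fell inside the shNT range, and the log2 fold change of -0.06 (95% interval -0.53 to 0.41, adjusted p = 0.92 from limma) leaves changes of up to these sizes undetected.

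Against the other ICAM genes within the same library, *ICAM1* changed its place. It made up 29.0%, 23.7% and 27.3% of the summed ICAM FPKM in the shNT libraries and 12.1%, 13.4% and 12.6% in the shGPR81 libraries. The means were 26.7% ± 2.72 and 12.7% ± 0.678 (SD, n = 3), and the groups did not overlap (exact two-sided permutation test, p = 0.1, the smallest possible). The log2 ratio of *ICAM1* to *ICAM2* was lower in shGPR81 by a difference of -1.29, that to *ICAM3* by -1.35 and that to *ICAM5* by -1.22. In each of these 3 ratios the shGPR81 libraries all lay below the shNT libraries (p = 0.1 each, exact permutation test, two-sided). The summed FPKM of the ICAM genes was 20.1 ± 2.66 in shNT and 16.1 ± 1.36 in shGPR81 (SD, n = 3; exact two-sided permutation test, p = 0.2).

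The plot of fold changes along chromosome 19 sets *ICAM1* among its neighbours. Of 34 genes annotated within 250 kb of its start, 26 were in the table, 19 were tested and 0 were called by limma, where 2.54% of all tested genes were called. At an adjusted p under 0.05 without the fold threshold the count was also 0. Within 50 kb, *DNMT1*, the maintenance DNA methyltransferase gene, had a log2 fold change of 0.03 (SE 0.05), *S1PR2*, a sphingosine phosphate receptor gene, 0.12 (SE 0.19), *MRPL4*, a mitochondrial ribosomal protein gene, -0.10 (SE 0.13), and *FDX2* (listed under its older symbol *FDX1L*), a ferredoxin gene, -0.04 (SE 0.13). *ZGLP1*, a gene of a GATA-like zinc finger protein, was listed at a mean of 0.0948 FPKM in shNT and 0.308 FPKM in shGPR81, which is 4, 2 and 1 reads against 10, 9 and 5 reads, with an adjusted p of 0.139 from limma. The antisense RNA genes *LIMASI* and *ICAM4-AS1* overlap *ICAM1* on the other strand and were not in the table. The library kit keeps strand, but how strand was used in the counting is not given in the sources used here.

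**Figure D3:**
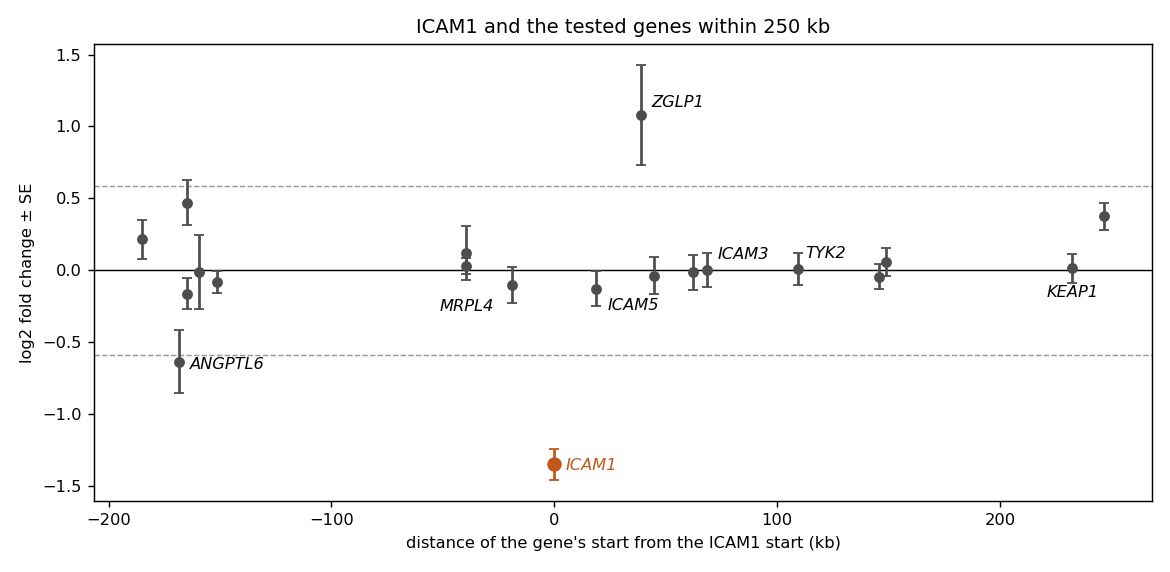
Log2 fold change ± SE (limma) of *ICAM1* (orange) and of the 19 tested genes within 250 kb, against the distance of each gene's start from that of *ICAM1* in kb. Dashed lines mark a fold change of 1.5. *ICAM1* is at -1.35, and *ICAM5* and *ICAM3* on the same stretch lie at -0.13 and 0.00.

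The 3 most abundant members were adhesion genes of epithelial, vascular and neural contacts. *MCAM* (chromosome 11, 119179239 to 119192231, minus strand), first known from melanoma, was at 54.4, 56.3 and 55.7 FPKM in shNT and at 56.2, 57.3 and 58.7 FPKM in shGPR81. These groups overlapped at their edges, and the interval of the log2 fold change was narrow, -0.06 to 0.15 around 0.05 (adjusted p = 0.632 from limma). *ALCAM* (chromosome 3, 105085753 to 105295744, plus strand) encodes a ligand of CD6, a surface protein of T cells. It was at 54.8, 46.5 and 47.5 FPKM in shNT and at 50.3, 52.3 and 49.0 FPKM in shGPR81. Its shGPR81 libraries lay within the shNT range (log2 fold change 0.03, 95% interval -0.14 to 0.20, adjusted p = 0.875 from limma).

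*L1CAM* (chromosome X, 153126969 to 153151627, minus strand), a neural adhesion gene tied to neurite outgrowth, was at 13.4, 15.1 and 17.8 FPKM in shNT and at 13.7, 13.3 and 13.8 FPKM in shGPR81. The shGPR81 libraries were close together at the low end of the wider shNT range, with a log2 fold change of -0.17 (95% interval -0.41 to 0.07, adjusted p = 0.427 from limma). *NCAM1* (chromosome 11, 112831997 to 113149158, plus strand), the neural and natural killer cell marker, was listed at 0.0123 FPKM in shNT replicate 2 and at 0 in the other 5 libraries.

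In shNT the order of mean levels was *MCAM* (55.5 FPKM), *ALCAM* (49.6), *L1CAM* (15.5), *ICAM2* (6.63), *ICAM1* (5.32), *ICAM5* (4.57), *ICAM3* (3.61), *VCAM1* (0.199), *NCAM1* (0.00409) and *ICAM4* (0). Ranges overlapped between the neighbours *MCAM* and *ALCAM*, *ICAM2* and *ICAM1*, *ICAM1* and *ICAM5*, and *NCAM1* and *ICAM4*. In shGPR81 the order was the same but for *ICAM1*, which stood at 2.04 FPKM below *ICAM5* (4.15) and *ICAM3* (3.63) with a range apart from that of *ICAM3*, and for *ICAM4* and *NCAM1*, which were both at 0. *MCAM* and *ALCAM* together made up 74.6% ± 2.91 of the summed FPKM of the 10 genes in shNT and 78.4% ± 0.889 in shGPR81 (SD, n = 3; exact two-sided permutation test, p = 0.2). The sum itself was 141 ± 0.996 FPKM in shNT and 138 ± 2.14 FPKM in shGPR81.

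Over the 8 tested members the median log2 fold change was -0.09, beside 0.01 over all tested genes, and 5 of the 8 were negative. Groups did not overlap in 2 of the 8, *ICAM1* and *VCAM1*, beside 25.6% of all tested genes. For *VCAM1* this follows from the filter on low values, which it passed through shNT alone.

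**Figure D4:**
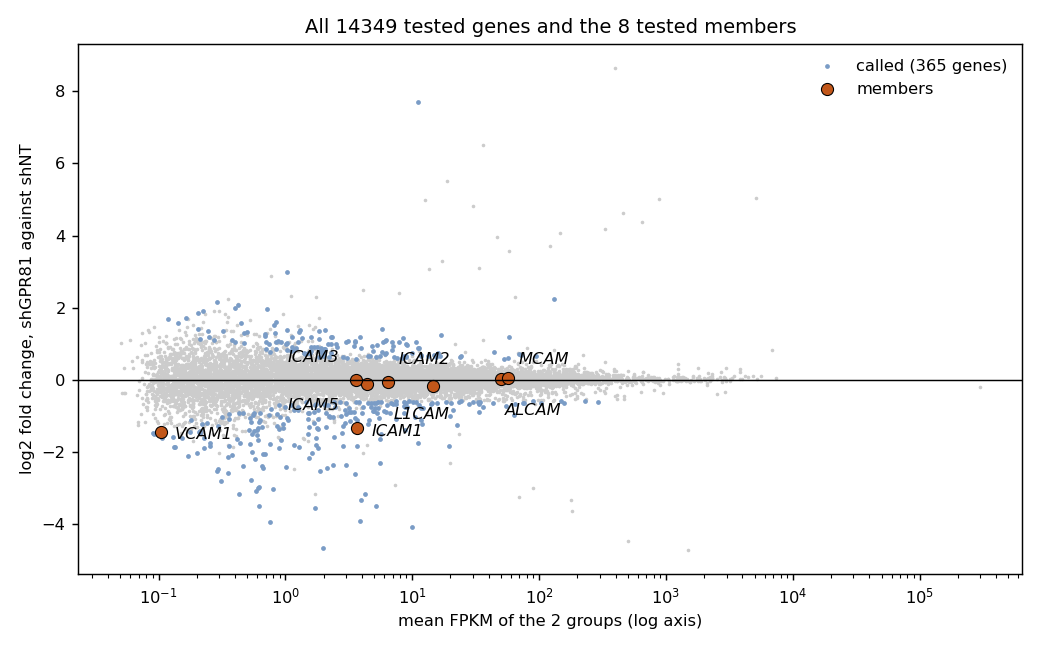
Log2 fold change (shGPR81 against shNT) of all 14349 tested genes against the mean FPKM of both groups on a log axis. Pale grey points are genes not called, blue points the 365 called genes, and orange points the 8 tested members. *ICAM1* is the 1 member among the called genes, and *VCAM1* sits at the low end of the expression range.

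The partners on which these proteins act were examined next, in lists compiled by hand for this comparison. Of 15 receptor and partner genes, 7 were tested and 0 were called by limma, where 2.54% of all tested genes were called. Without the fold threshold 1, *ITGB3*, was at an adjusted p under 0.05, beside 5.13% of all tested genes. The leukocyte integrin chains that pair with *ITGB2* on the side of the bound cell were at or near 0 here: *ITGAM* and *ITGAD* were listed at 0 in all libraries, and *ITGAL* did not exceed 0.0152 FPKM in any library. *ITGAX*, the highest of these chains, reached 0.0553 FPKM and was below the filter. It had 2, 2 and 3 reads in shNT and 1, 0 and 0 reads in shGPR81. *ITGB2* itself was at 8.84 ± 1.58 FPKM in shNT and 7.42 ± 1.27 FPKM in shGPR81 (SD, n = 3; adjusted p = 0.485 from limma). *ITGB1* (478 FPKM in shNT and 482 FPKM in shGPR81), the shared chain of the beta-one integrins, and *NRP1* (67.0 and 68.0 FPKM), the neuropilin that associates with L1CAM, were the most abundant. *ITGB3*, a chain of an integrin that binds L1CAM, was at 7.78 ± 0.498 FPKM in shNT and 5.78 ± 0.327 FPKM in shGPR81, a log2 fold change of -0.42 (adjusted p = 0.0311 from limma), under the fold threshold. It is named after its values were seen.

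Among 32 other adhesion genes of the immunoglobulin superfamily, 18 were tested. By limma 1 was called lower and 0 higher, where 1.59% of all tested genes were called lower and 0.955% higher. The one called was *CADM1*, which encodes a nectin-like adhesion molecule described as a tumour suppressor. It was at 2.02, 1.66 and 1.64 FPKM in shNT and at 0.270, 0.239 and 0.234 FPKM in shGPR81. No shGPR81 library came near the shNT range, and the log2 fold change was -2.43 (limma, adjusted p = 0.00066, SE 0.17), which held with each library left out. *F11R* (log2 fold change 0.44, adjusted p = 0.0177), a tight junction gene, and *CD58* (0.49, adjusted p = 0.0279), the ligand of CD2, were higher at the adjusted p (limma) and under the fold threshold. Both are named after their values were seen. *NCAM2*, the paralog of *NCAM1*, was below the filter and not tested, with 5, 4 and 3 reads in shNT and 0 in each shGPR81 library. Setting the shGPR81 group to a floor of 3 reads made *NCAM2* 4.21-fold lower. That figure takes the shNT reads as exact and covers no spread between libraries. *NCAM2* too is named after its values were seen. The most abundant of the list were *BSG* (400 FPKM in shNT and 410 FPKM in shGPR81), the chaperone of monocarboxylate transporters, and *ESAM* (54.4 and 64.1 FPKM), an endothelial adhesion gene, with adjusted p of 0.878 and 0.159 from limma. The median log2 fold change over the 18 genes was 0.05. The 4 nectin genes of this list were found under their older PVRL symbols.

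The 9 cytoplasmic linkers of these proteins to actin and ankyrin were all tested and 0 were called by limma, where 2.54% of all tested genes were called. At an adjusted p under 0.05 there was 1 gene, beside 5.13% of all tested genes. That gene was *MSN*, the moesin gene, at 350 ± 19.5 FPKM in shNT and 431 ± 22.2 FPKM in shGPR81 (SD, n = 3; log2 fold change 0.30, adjusted p = 0.0378), a difference below the fold threshold. *ACTN4*, an alpha-actinin gene, was at 320 ± 52.3 and 356 ± 36.0 FPKM (adjusted p = 0.57 from limma).

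Of 7 genes for shedding and for the polysialic acid of NCAM1, 6 were tested and 2 were called higher by limma, where 0.955% of all tested genes were. *BACE1*, a protease gene named after its values were seen, passed the adjusted p and not the fold threshold (log2 fold change 0.31, adjusted p = 0.0253). *MMP14*, a membrane-bound metalloprotease gene, rose from 38.7, 44.1 and 43.9 FPKM in shNT to 62.1, 62.9 and 65.2 FPKM in shGPR81 (log2 fold change 0.59 by limma, adjusted p = 0.003, SE 0.06). Its fold change stood just over the threshold of 1.5 and dropped under it without shNT replicate 1 (log2 fold change 0.52) or shGPR81 replicate 3 (0.57), and also with median centring (0.582), quantile normalization (0.581) or a pseudocount of 1 (0.576), while the adjusted p of the 13 alternatives lay between 0.0012 and 0.0226. *ST8SIA4*, a polysialyltransferase gene, rose from 0.544 to 0.730 FPKM in shNT to values from 1.17 to 1.68 FPKM in shGPR81 (log2 fold change 1.03 by limma, adjusted p = 0.0207, SE 0.18). It was not called without shNT replicate 2 (adjusted p = 0.0885), shGPR81 replicate 2 (0.0938) or shGPR81 replicate 3 (0.0786), or with the replicate number as a block (0.0507). *ADAM10*, a protease that sheds L1CAM among others, was at 29.1 and 28.1 FPKM (adjusted p = 0.803 from limma).

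The genes that carry cytokine signals to *ICAM1* and *VCAM1* formed the next list. All 29 were tested, and by limma 1 was called lower and 0 higher, where 1.59% of all tested genes were called lower and 0.955% higher. The median log2 fold change of the list was -0.05. Among the most abundant was *RELA*, the gene of an NF-kB subunit, at 43.4 FPKM in shNT and 44.9 FPKM in shGPR81 (adjusted p = 0.815 from limma). The gene called lower was *IL1R1*, the interleukin-1 receptor gene. It was at 0.897, 0.615 and 0.512 FPKM in shNT and at 0.0426, 0.0431 and 0 FPKM in shGPR81, so that every shGPR81 library was far below the lowest shNT library. The log2 fold change was -2.58 (limma, adjusted p = 0.0038, SE 0.30), and *IL1R1* was called in all 12 alternatives that kept it, with a size from -4.46 to -0.70 that depended on the pseudocount. It passed the filter on low values through shNT alone, so its groups had to differ. *IL1R1* has no value under a filter of 1 FPKM, where 0 genes of this list were called.

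Of 21 NF-kB target genes, all tested, 2 were called lower and 0 higher by limma, where 1.59% of all tested genes were called lower, and the median log2 fold change was -0.03. *TNFAIP2*, named after its values were seen, was a further gene at an adjusted p under 0.05 and below the fold threshold (log2 fold change -0.36, adjusted p = 0.0183). *CSF2*, the gene of the granulocyte-macrophage growth factor, was at 8.67, 8.21 and 8.53 FPKM in shNT and at 2.93, 2.85 and 2.97 FPKM in shGPR81, a log2 fold change of -1.51 (limma, adjusted p = 0.00028, SE 0.08). *CCL2*, a monocyte chemokine gene, had 6, 1 and 6 reads in shNT and 0 in each shGPR81 library. Setting the shGPR81 group to a floor of 3 reads made *CCL2* 4.56-fold lower. That figure takes the shNT reads as exact and covers no spread between libraries. *CCL2* passed the filter on low values through shNT alone, so its groups had to differ. Its adjusted p was 0.0428, and it was called without shNT replicate 2 and lost without any other single library, with adjusted p from 0.0119 to 0.145 (limma). The most abundant targets, *PLAU* (145 FPKM in shNT and 155 FPKM in shGPR81), the urokinase gene, and *TNIP1* (97.0 and 97.7 FPKM), an inhibitor of NF-kB signalling, had adjusted p of 0.314 and 0.951 from limma.

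**Figure D5:**
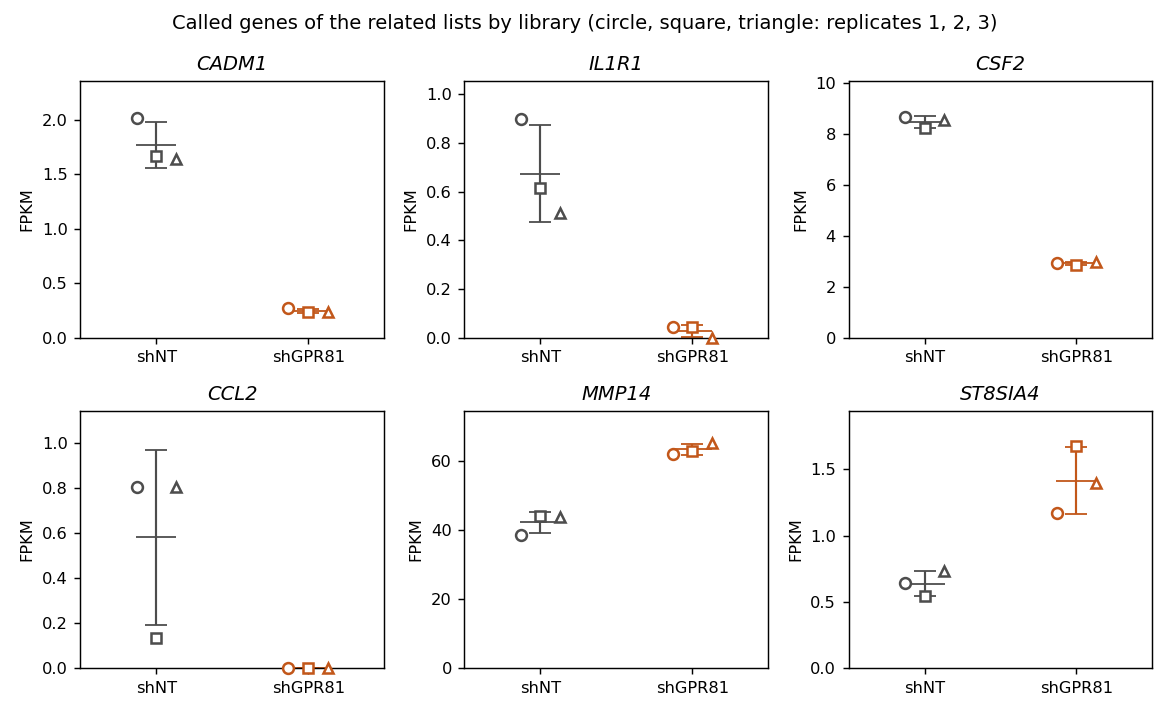
FPKM by library of the 6 genes of the related lists that were called, on linear axes from 0 with a panel per gene. Open symbols are libraries, and the bar with whiskers is the mean ± SD. *CADM1*, *IL1R1*, *CSF2* and *CCL2* are lower and *MMP14* and *ST8SIA4* higher in every shGPR81 library than in every shNT library. *IL1R1* and *CCL2* passed the filter on low values through shNT alone, so their groups had to differ.

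Lastly, genes were ranked by how closely their levels followed *ICAM1*, by the distance between log2(FPKM + 0.1) profiles over the 6 libraries, each centred on its own mean, among 11676 tested genes whose mean was 1 FPKM or more. With 2 groups of 3 libraries, this measure mostly picks genes with a like difference between the groups, and it is given as a description. The nearest was *HLA-DRA* (distance 0.149), the alpha chain gene of the class II antigen-presenting molecule HLA-DR, at 12.6, 12.4 and 13.2 FPKM in shNT and 4.28, 4.65 and 5.42 FPKM in shGPR81. It was followed by *ISM1* (0.216), *CSF2* (0.320), *CHRDL1* (0.322), a gene of a BMP antagonist, and *TNS4* (0.327), a tensin gene. Their shGPR81 means were between 34.4% (*CSF2*) and 45.4% (*TNS4*) of the shNT means, beside 38.3% for *ICAM1*.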

How the data were processed

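Poly(A) RNA of 3 shNT and 3 shGPR81 libraries was read as single-end reads of 75 bases. Per the paper, reads were mapped to hg19 (GRCh37) with TopHat 2.0.13, Bowtie2 2.2.3 and SAMtools 0.1.19; the deposited description names mm10 instead, and the cells are human, so GRCh37 was used. The submitters' processing notes also list Cuffnorm 2.2.1. The deposited table holds FPKM made by the authors, 1 value per gene symbol and library. The annotation and the scaling of libraries are not given in the sources used here.

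Here log2(FPKM + 0.1) entered a linear model in limma 3.58.1 (R 4.3.3; moderated variances with a mean trend), without a block, and the thresholds were those of the study. The study put read counts into iDEP, but the table is FPKM, for which limma was used. The script was tested on simulated data. Library scales were taken from the commonest ratio of low FPKM, and reads from the largest step of which a gene's values were whole multiples (tolerance 0.0001), which gave reads for 5432 of 15931 genes above 0 in at least 3 libraries. Depth used the longest GENCODE release 44 transcript on GRCh37. No pair of replicates agreed within counting noise (chi-square divided by genes 2.50 to 4.13, against 1 for noise). Promoters are from RefSeq (GRCh38.p14) and were placed in GRCh37 by exact match.

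Named are the members, *HCAR1*, called genes of each list and its 2 most abundant genes, tested neighbours within 50 kb, and the 5 nearest genes by profile; marker and neighbour lists are given by the values that bear on the results. Some genes of the lists are not reported here. Members and lists were chosen with earlier results of these data known. Alternatives were filters of 1 FPKM and none, pseudocounts of 1 and 0.01, median centring, quantile normalization, a replicate block and leaving out each library.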

Additional observations from a re-analysis of the deposited data

How the results depend on the processing

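The call of *ICAM1* held in all 13 alternatives, with a log2 fold change between -1.40 and -1.06 and an adjusted p from 0.00089 to 0.0133 (limma). The number of members called lower was 2 with no filter, where *VCAM1* passed, and 1 in the other 12, and 0 members were called higher in any. *ICAM1* as a share of ICAM FPKM differed by -15.5 to -12.8 percentage points with each library left out. With a pseudocount of 1, the difference in its log2 ratio was -1.06 to *ICAM3* and -0.95 to *ICAM5*. Members that were not called changed sign in places. *ICAM3* was at -0.0019 with median centring and at -0.0065 with quantile normalization, and with each library left out *ICAM3* ranged from -0.086 to 0.10, *ICAM2* from -0.28 to 0.11 and *ALCAM* from -0.015 to 0.10. Over all genes, 142 were lower and 75 higher with a pseudocount of 1. Leaving out single libraries gave 121 to 256 lower (121 when shNT replicate 2 was dropped, 133 for shGPR81 replicate 1, 135 for shGPR81 replicate 2) and 65 to 152 higher (65 when shGPR81 replicate 1 was dropped, 66 for shGPR81 replicate 2, 81 for shNT replicate 2, 85 for shGPR81 replicate 3). The main counts were 228 and 137. Over the alternatives, 0 to 2 shedding genes were called higher, 1 to 2 NF-kB targets lower and 0 to 1 signalling genes lower. In the lists, *MMP9* (3, 5 and 5 reads in shNT, 1, 0 and 0 in shGPR81) was called lower with no filter, and with a pseudocount of 1 neither *MMP14* nor *ST8SIA4* was called. *VCAM1*, *HCAR1*, *IL1R1* and *CCL2* have no value under a filter of 1 FPKM. Causes of these moves were not tested. Same-numbered libraries deviated together with correlations of 0.147, 0.063 and -0.038 across genes, beside -0.176 to 0.123 for other pairs. Of 6 libraries, 3 correlated best with their own number, which does not settle whether the numbers pair the libraries. With the replicate number as a block, 197 genes were lower and 115 higher, *ICAM1* had an adjusted p of 0.0053, and *CCL2* (0.0541) and *ST8SIA4* (0.0507) were no longer called. At this depth *VCAM1*, *ICAM4* and *NCAM1* were listed at or near 0, where low levels and absence cannot be told apart.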
